A study of Mus musculus with 3 samples.

Results

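TGF-β and BMP signalling was described in KO-actin cells through 44 genes, which are 18 ligand genes, 11 receptor genes, 8 Smad genes, 4 extracellular antagonist genes and 3 Id target genes. The members were taken by gene symbol as a list of pathway genes, and all 44 were found by Ensembl identifier among the 46603 genes counted. KO-actin cells are fibroblasts of mouse embryos (MEFs) that lost their own β-actin gene by knockout and were given back a β-actin tagged with a nuclear localization signal (NLS), and the labels give their genotype as Beta-actin KO-NLS. Polyadenylated RNA of 3 libraries, here replicates 1 to 3, was sequenced, and all 3 belong to this condition, so levels were compared between genes and between libraries and never between conditions. The cells came from a line made earlier, and the labels do not say whether the libraries are separate cultures, so the spread between them may be technical. The age of the embryos is not given in the sources used here.

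Ligands of this family are secreted dimers that bring type I and type II serine/threonine kinase receptors together. The type I receptor then phosphorylates receptor-activated Smads, which are Smad2 and Smad3 for TGF-β and activin and Smad1, Smad5 and Smad9 for BMP, and these enter the nucleus with Smad4. Smad6 and Smad7 inhibit the pathway, antagonists such as Noggin and Gremlin bind ligands outside the cell, and the Id genes are textbook targets of the BMP arm. In fibroblasts the TGF-β arm is known for driving matrix production and contractile gene expression.

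The libraries held 49932446, 49587453 and 44383636 counts. Levels are given as CPM (read counts scaled by TMM to a common library size) for comparisons between libraries and as CPM per kilobase of exon for comparisons between genes. A count of 0 allows up to 3 counts, which is 0.0601, 0.0605 and 0.0676 CPM of the unscaled totals in replicates 1 to 3, and a gene was called above this floor when it had more than 3 counts in every library. This floor and the intervals below cover counting error only. Replicate 2 stood apart, with a chi-square per gene of 11.1 against replicate 1 and 10.6 against replicate 3, where replicates 1 and 3 gave 3.72. Of 10 fibroblast markers 9 were above the floor and 8 had at least 1 CPM, with a summed level of 12460 to 13406 CPM per library. Their levels ranged widely. Vim stood at 4562 CPM and Col1a1 at 4057 CPM, whereas Pdgfra stood at 4.97 CPM, Dcn had 8, 8 and 6 counts and Lum had 0 throughout. Markers of other cells were above the floor for 3 of 8 endothelial genes (summed level 4.79 to 5.53 CPM), 2 of 6 epithelial genes (38.4 to 40.2 CPM, nearly all Krt18), 1 of 6 blood genes (7.25 to 10.2 CPM) and 2 of 6 chondrocyte or osteoblast genes (13.7 to 15.9 CPM). At most 3 counts in every library were found for 4 of the endothelial, 2 of the epithelial, 4 of the blood and 3 of the chondrocyte or osteoblast genes. Among these, Cdh5, Epcam and Ptprc each had at most 1 count in any library. Other genes of the lists had reads, with Sox9 at 12.8 CPM, Cd68 of the blood list at 8.57 CPM and Krt8 at 1.48 CPM. Cdh1 had 4, 12 and 1 counts and Krt5 had 7, 0 and 6. Actb itself had 1085 ± 23.2 CPM (SD, n = 3), a value that does not separate the NLS-tagged gene from the knocked-out locus.

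Every Smad, antagonist and Id gene of the set was above the floor, while ligands were split between genes with many reads and genes with almost none. The floor was passed by 34 of the 44 members, where 58.9% of the 21624 protein-coding genes counted passed it. These were 8 of 8 Smads, 4 of 4 antagonists, 3 of 3 Id genes, 9 of 11 receptors and 10 of 18 ligands. A mean of at least 1 CPM was reached by 31 members, against 52.1% of protein-coding genes. The median level over all members of a class was 0.463 ± 0.135 CPM per kilobase (SD, n = 3) for ligands, 5.26 ± 0.354 for receptors, 9.71 ± 0.247 for Smads, 0.891 ± 0.100 for antagonists and 110.5 ± 2.74 for Id genes. Smads thus lay above receptors, receptors above antagonists and antagonists above ligands in each of the 3 libraries. For reference, the median was 0.490 CPM per kilobase over all protein-coding genes and 6.43 over those above the floor. The ligand median depended on the 8 ligands not above the floor, because the 10 ligands that passed had a median of 7.12 CPM per kilobase, close to the 7.90 of the 9 receptors that passed.

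**Figure D1:**
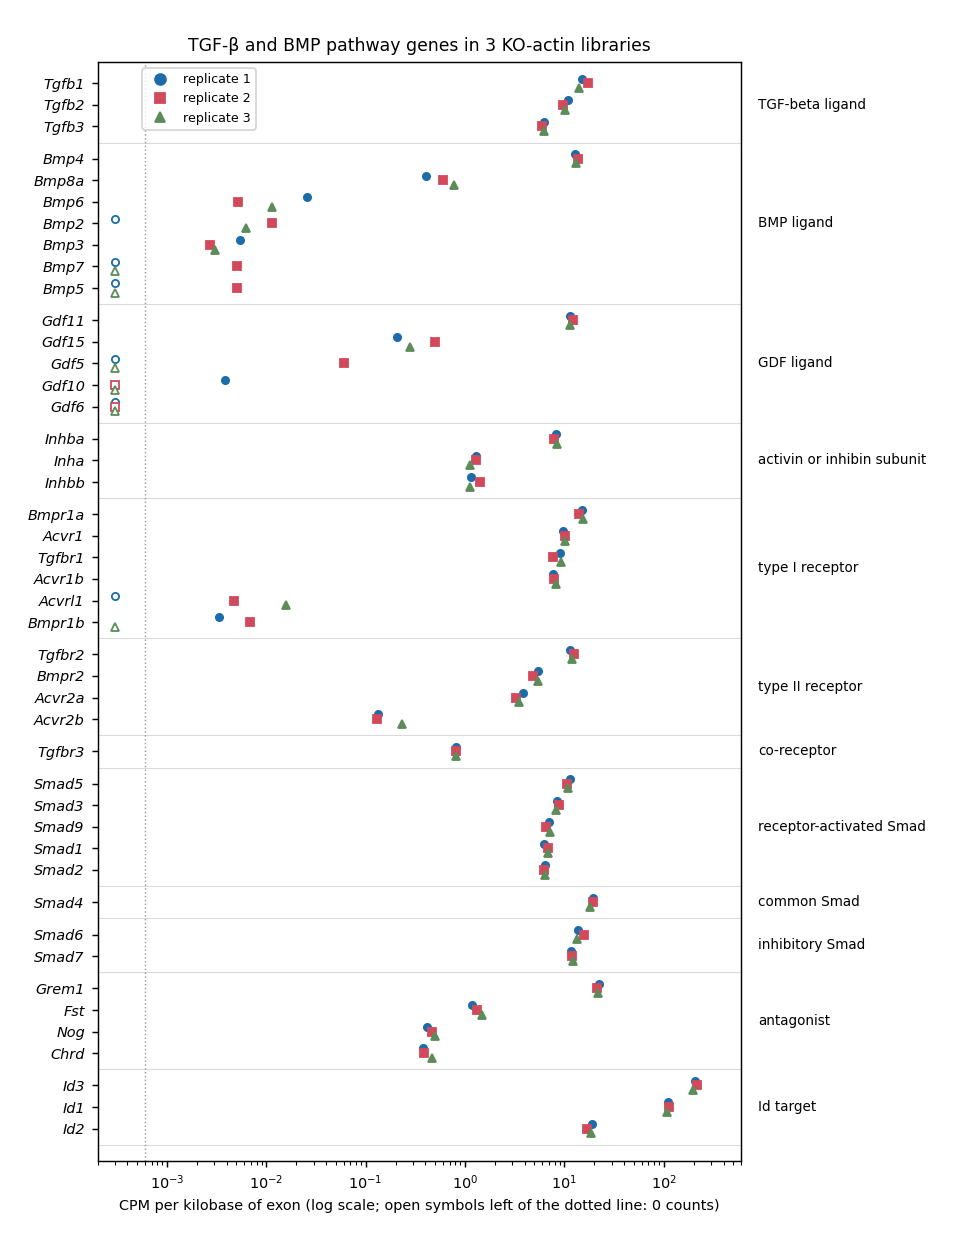
Level of each of the 44 members in CPM per kilobase of exon (log axis), with a symbol per library and genes grouped by role; open symbols left of the dotted line are libraries with 0 counts. Bmp4 and Gdf11 sit near 10 CPM per kilobase, while most other BMP and GDF genes lie below 0.1 or at 0.

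All 3 TGF-β genes, which encode the ligands that signal through Tgfbr1 and Tgfbr2, were well measured. Tgfb1 (GRCm38, chr7:25687002-25705077, plus strand) had 75.9, 87.7 and 70.3 CPM in replicates 1 to 3. For Tgfb2 (chr1:186622792-186705989, minus strand) the values were 63.5, 56.8 and 59.4 CPM, and for Tgfb3 (chr12:86056745-86079041, minus strand) 20.9, 20.0 and 20.9 CPM. Tgfb1 was highest in replicate 2 and Tgfb2 lowest there, and the ranges of the 3 genes did not overlap. Per kilobase, Tgfb1 stood at 15.5 ± 1.76, Tgfb2 at 10.3 ± 0.587 and Tgfb3 at 6.09 ± 0.164 (SD, n = 3), so that Tgfb1 made up 48.4% of the summed TGF-β level, Tgfb2 32.5% and Tgfb3 19.1%. The ratio of Tgfb1 to Tgfb2 was 1.37, 1.77 and 1.36 in replicates 1 to 3, and that of Tgfb1 to Tgfb3 was 2.44, 2.95 and 2.25. Both ratios lay above 1 in 3 of 3 libraries. Their size depended on the length used, since the mean log2 ratios, 0.58 and 1.34 per kilobase of exon, were 1.37 and 2.31 per kilobase of the longest transcript.

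Among the 7 BMP ligand genes, Bmp4 carried nearly all of the RNA counted, and Bmp8a was the only other above the floor. Bmp4, a BMP that acts in mesoderm formation and in many organs, lies at chr14:46383520-46390669 on the minus strand and had 28.5, 31.1 and 29.2 CPM in replicates 1 to 3. Bmp8a (chr4:123312645-123343252, minus strand), best known from germ cell development, had 49, 71 and 84 counts. Its near copy Bmp8b had 1 count in each library, and 8.91% of the 50-base windows of the Bmp8a mRNA also occur in Bmp8b, so reads from those windows cannot be assigned with certainty. Per kilobase, Bmp4 reached 13.2 ± 0.595 (SD, n = 3) and Bmp8a 0.597 ± 0.188, a ratio of summed counts of 22.3 with an exact 95% interval of 19.4 to 25.8 (Clopper-Pearson on the counts).

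Bmp3 and Bmp6 were set against these genes. Bmp3 (chr5:98854415-98884396, plus strand), a family member known to oppose BMP signalling in bone, had 2, 1 and 1 counts. Bmp6 (chr13:38345107-38500302, plus strand), a signalling BMP known for iron regulation and bone, had 5, 1 and 2 counts. Bmp3 was under the floor in every library, and Bmp6 exceeded it in replicate 1 alone. Over the 3 libraries together, Bmp4 stood above Bmp6 per kilobase by a factor of 924 (exact 95% interval 469 to 2142) and above Bmp3 by 3506 (1368 to 12872). The share of the summed BMP ligand level was 95.5% ± 1.25 (SD, n = 3) for Bmp4, 4.31% ± 1.29 for Bmp8a, 0.105% ± 0.0821 for Bmp6 and 0.0274% ± 0.0121 for Bmp3. Replicate 1 decided the share of Bmp6, which was 0.0596% without it.

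The other BMP ligands had as few reads as Bmp3. Bmp2 (chr2:133552159-133562885, plus strand), a close relative of Bmp4, had 0, 2 and 1 counts, and Bmp5 (chr9:75775364-75900310, plus strand) and Bmp7 (chr2:172868012-172940321, minus strand) each had 0, 1 and 0. The ratio of Bmp4 to Bmp2 per kilobase was 2246 with an exact 95% interval of 768 to 10896. With 1 count in all, Bmp5 and Bmp7 gave the same kind of ratio at 7629 and 7618, with lower bounds of 1369 and 1366. Set against these genes directly, a comparison added after the values had been seen, Bmp6 stood per kilobase at 2.43 times Bmp2 (exact 95% interval 0.583 to 14.2), 3.79 times Bmp3 (1.02 to 17.2), 8.26 times Bmp5 (1.11 to 366) and 8.24 times Bmp7 (1.11 to 366). Only the interval for Bmp2 included 1. Without replicate 1, which held 5 of the 8 Bmp6 counts, all 4 intervals included 1, with ratios of 0.912, 2.85, 3.10 and 3.09. For Bmp6, Bmp5 and Bmp4 part of the exonic bases lies under a gene on the opposite strand, and without a stated strand setting reads from such a pair cannot be told apart. The overlap covered 5.74% of the Bmp6 exons by Txndc5, a gene at 288 CPM, 46.7% of the Bmp5 exons by Gm26903, with 0 counts in each library, and 3.96% of the Bmp4 exons by Gm15217, with 3, 4 and 11 counts.

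The sequence before the RefSeq start site is shown for BMP ligand genes of high, low and nearly absent counts, where it lies outside the GENCODE gene. For Bmp5, 1 base inside that gene was left out. Each line reads 5′ to 3′ on the strand of the gene, from RefSeq on GRCm38.p6, with every CG dinucleotide in capitals.
Bmp4, chr14:46390670-46390919, minus strand: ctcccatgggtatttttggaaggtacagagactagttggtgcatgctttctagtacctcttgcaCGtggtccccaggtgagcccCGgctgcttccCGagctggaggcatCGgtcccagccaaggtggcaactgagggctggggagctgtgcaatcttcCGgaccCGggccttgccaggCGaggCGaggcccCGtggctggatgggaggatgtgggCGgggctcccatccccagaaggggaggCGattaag
Bmp8a, chr4:123343253-123343502, minus strand: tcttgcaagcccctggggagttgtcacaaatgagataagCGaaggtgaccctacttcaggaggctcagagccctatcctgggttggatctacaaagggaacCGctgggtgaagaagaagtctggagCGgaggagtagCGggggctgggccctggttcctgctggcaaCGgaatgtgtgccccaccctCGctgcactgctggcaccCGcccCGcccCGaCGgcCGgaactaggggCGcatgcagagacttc
Bmp5, chr9:75775115-75775363, plus strand: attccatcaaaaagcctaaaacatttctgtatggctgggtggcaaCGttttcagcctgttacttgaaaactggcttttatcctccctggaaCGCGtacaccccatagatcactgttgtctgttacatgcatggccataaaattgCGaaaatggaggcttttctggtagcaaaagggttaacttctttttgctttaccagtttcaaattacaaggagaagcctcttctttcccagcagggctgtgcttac
These stretches held 11 CG dinucleotides for Bmp4, 12 for Bmp8a and 4 for Bmp5. In the full windows of 300 bases (250 before the start and 50 after), Bmp4 had 12, Bmp8a 15 and Bmp5 4, and 60.4%, 65.4% and 31.4% of the 32851 windows of the RefSeq table had fewer. The Bmp6 window had 27, more than 84.5% of all windows. Its 250 upstream bases lie between the start and the end of the GENCODE gene and are therefore not printed. Among these windows the most CG and the fewest thus belonged to genes with almost no reads, Bmp6 and Bmp5. The Bmp6 window differs from the others in its position, and so few windows cannot show how CG content goes with counts.

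Windows were found for 30 of the 44 members, 36 windows in all. The other 14 members were Acvrl1, Bmp2, Bmp3, Bmp7, Fst, Gdf5, Gdf6, Id1, Nog, Smad2, Smad4, Smad7, Tgfb3 and Tgfbr3. The median was 26 CG per member window, in a range of 1 to 54, and 7 over all windows of the table. Members above the floor had a median of 27.5 over 30 windows and the others 6 over 6 windows, of which Bmpr1b alone gave 3. The letters GGCGCC read the same on both strands and are part of GC-rich sites described for BMP Smads. They occurred in 11 member windows (30.6%) and in 11.9% of all windows. Overlapping windows of Smad5 were counted separately among the 11. The letters hold a CG, and member windows had the higher median, 26 CG against 7. Whether the share of GGCGCC exceeds what CG content alone would give was not tested. TATAAA on either strand occurred in 4 member windows (11.1%) and in 13.6% of all windows.

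Genes neighbouring the BMP ligands along the chromosome were set beside them, a comparison that the study itself did not ask for. Within 500 kb of the Bmp6 start site there were 8 other protein-coding genes, and 8 of 8 had at least 1 CPM. They included Ssr1 at 285 CPM, Txndc5 at 288 CPM and Dsp, a desmosomal gene, at 3.90 CPM. For Bmp3 1 of 2 neighbours reached 1 CPM, namely Prkg2, a cGMP-dependent kinase gene, at 75.2 CPM. The counts were 5 of 6 for Bmp4, 6 of 10 for Bmp5, 4 of 11 for Bmp7 and 10 of 16 for Bmp8a, and Bmp2 had no neighbour in the window. The median share of neighbours at 1 CPM or more was 58.3% over 21277 protein-coding genes. Low counts on a BMP gene thus occurred beside genes with many reads, and Bmp6 was not alone in a share of 100%, which Gdf6, Acvr2a, Smad2 and Smad7 also had, with 1 to 6 neighbours each. The share for Bmp6 was 3 of 3 within 250 kb and 10 of 11 within 1000 kb.

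**Figure D2:**
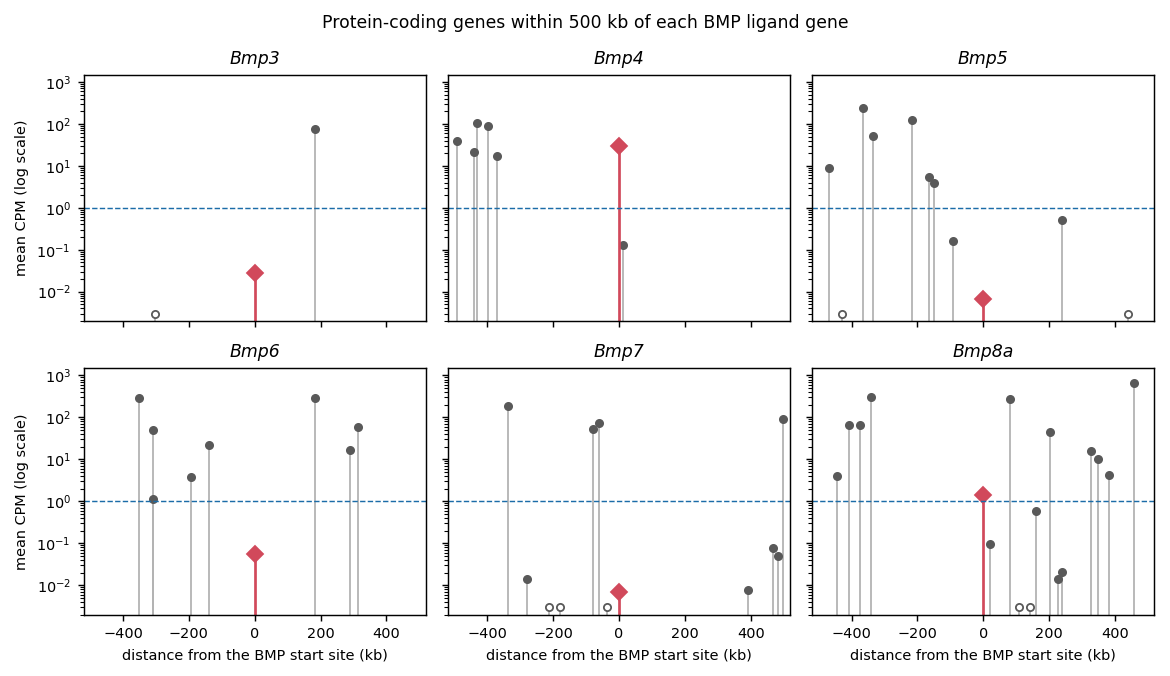
Mean CPM (log axis) of each BMP ligand gene (red diamond, at distance 0) and of protein-coding genes within 500 kb (grey circles), by distance along the strand of the BMP gene; open circles at the foot had 0 counts and the dashed line marks 1 CPM. All 8 circles around Bmp6 lie above the line and the Bmp6 diamond lies below it.

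Of the 5 GDF ligands, Gdf11 and Gdf15 were above the floor. Gdf11 (chr10:128882295-128891718, minus strand), which patterns the body axis and signals through activin receptors, had 46.1, 49.3 and 46.6 CPM, a level of 11.7 ± 0.416 CPM per kilobase (SD, n = 3). Gdf15 (chr8:70629393-70632456, minus strand), a distant member known as a stress-induced hormone, had 19, 46 and 23 counts and was highest in replicate 2. Gfral, which encodes the receptor known for Gdf15, had 0 counts in each library, and this gene was looked at after its values had been seen. Gdf5, known from joint formation, had 0, 7 and 0 counts, so that all of its reads came from replicate 2. Of its exons, 40.3% lie under Gm15557 on the other strand, a gene with 0, 1 and 1 counts. Gdf10 had 1, 0 and 0 counts, and Gdf6, a relative of Gdf5, had none in any library.

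Activin and inhibin subunits were led by Inhba, the subunit of activin A. Inhba (chr13:16011851-16031621, plus strand) had 52.2, 50.1 and 54.0 CPM, while Inhbb, the subunit of activin B, had 4.87, 6.05 and 4.74 CPM. Inha, whose product pairs with either of them to form inhibin, had 1.88, 1.92 and 1.64 CPM. Inhba stood above Inhbb per kilobase in 3 of 3 libraries, by 7.14, 5.52 and 7.59, and made up 86.9% ± 1.98 (SD, n = 3) of the summed activin subunit level. Inhbb at 1.23 ± 0.170 and Inha at 1.23 ± 0.104 CPM per kilobase (SD, n = 3) overlapped in range.

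Of the type I receptors, all but Bmpr1b and Acvrl1 were above the floor. Per kilobase the BMP receptors Bmpr1a and Acvr1 were the highest, at 14.8 and 9.93, whereas in CPM Tgfbr1 stood above Acvr1 in each library. Bmpr1a (chr14:34410734-34503341, minus strand), a BMP receptor, had 95.7, 88.6 and 97.3 CPM and was lowest in replicate 2. Its relative Bmpr1b (chr3:141837136-142169425, minus strand), known from cartilage, had 1, 2 and 0 counts. Acvr1 (chr2:58388644-58567157, minus strand), a BMP receptor that is mutated in heritable ossification of soft tissue, had 46.7, 48.5 and 48.7 CPM, and Acvrl1 (chr15:101128522-101145336, plus strand), known from endothelium, had 0, 1 and 3 counts. Bmpr1a exceeded Bmpr1b per kilobase by a factor of 4221 (exact 95% interval 1444 to 20472) and Acvr1 exceeded Acvrl1 by 1523 (595 to 5591), both from summed counts. Bmpr1a held 59.8% ± 1.45 and Acvr1 40.2% ± 1.44 (SD, n = 3) of the summed level of the 4 BMP type I receptors. Of the 8 endothelial markers, 3 were above the floor, namely Vwf at 2.70 CPM, Kdr at 2.09 CPM and Pecam1 with 6, 5 and 6 counts, while Cdh5 had 0, 0 and 1. Their part in the Acvrl1 value was not tested, and in bulk RNA fewer cells of a type and less RNA per cell cannot be told apart.

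On the TGF-β and activin side, Tgfbr1 (chr4:47353222-47414931, plus strand) had 59.0, 49.8 and 60.0 CPM, and replicate 2 was the lowest. Acvr1b, the activin type I receptor, had 33.6, 34.4 and 36.7 CPM, and per kilobase it overlapped Tgfbr1 in range, at 7.90 ± 0.370 against 8.61 ± 0.860 (SD, n = 3). Per kilobase the type II receptors were led by Tgfbr2 (chr9:116084293-116175360, minus strand), followed by Bmpr2. Tgfbr2 had 94.2, 101 and 98.0 CPM and Bmpr2 98.0, 87.2 and 98.4, so that in CPM Bmpr2 was the higher in replicates 1 and 3. Bmpr2, the BMP type II receptor, has 17983 exonic bases, so that per kilobase it stood at 5.26 ± 0.354, below the 12.0 ± 0.439 of Tgfbr2 (SD, n = 3). The ratio of Tgfbr1 to Tgfbr2 per kilobase was 0.784, 0.615 and 0.766, and that of Bmpr2 to Bmpr1a was 0.362, 0.348 and 0.357. Both were below 1 in 3 of 3 libraries, and the second reversed when length was left out (log2 ratio 0.01).

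The remaining receptors were lower. Acvr2a, an activin type II receptor, had 21.8, 18.7 and 19.7 CPM, and its relative Acvr2b had 26, 25 and 41 counts. Acvr2a stood above Acvr2b per kilobase by 28.9, 25.5 and 14.8, the smallest ratio being that of replicate 3, where Acvr2b was highest. For Acvr2a, 7.84% of the exons lie under Orc4 on the other strand, a gene at 42.6 CPM. Tgfbr3, the co-receptor also called betaglycan, had 5.31, 5.26 and 5.36 CPM, and these values differed by 1.02-fold at most.

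All 8 Smads had at least 35 CPM in every library and lay within a narrow band, from 6.30 ± 0.113 CPM per kilobase (SD, n = 3) for Smad2 to 18.9 ± 0.650 for Smad4, the partner shared by both arms. Smad4 had 71.9, 71.4 and 67.5 CPM. Among the BMP-arm Smads, Smad5 (chr13:56703010-56742377, plus strand) had 84.7, 78.6 and 79.9 CPM, Smad1 39.1, 42.7 and 42.7, and Smad9 37.9, 35.0 and 38.2. Smad5 was the highest of them in each library, at 1.83, 1.55 and 1.58 times Smad1 and 1.62, 1.62 and 1.51 times Smad9 per kilobase, and the ranges of Smad1 and Smad9 overlapped. Among the TGF-β-arm Smads, Smad3 had 47.0, 49.3 and 45.2 CPM and Smad2 55.5, 54.3 and 56.3. Smad3 stood above Smad2 per kilobase by 1.34, 1.44 and 1.27, while Smad2, the longer gene, had the more reads. Of the inhibitory Smads, Smad6 (chr9:63953076-64022059, minus strand), which acts mainly on the BMP arm, had 44.1, 51.0 and 42.7 CPM and Smad7, which acts on both, had 53.2, 53.8 and 54.8. Smad7 stood below Smad6 per kilobase at 0.856, 0.747 and 0.910, an order that reversed when length was left out (log2 ratio 0.24).

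Summed per kilobase, the 3 BMP-arm Smads lay above the 2 TGF-β-arm Smads by 1.67, 1.59 and 1.70. The 3 TGF-β ligands lay above the 7 BMP ligands by 2.45, 2.29 and 2.20. These ratios compare sums over unequal numbers of genes. Gene by gene the 2 Smad arms were mixed, with means per kilobase of 10.9 for Smad5, 8.51 for Smad3, 6.90 for Smad9, 6.63 for Smad1 and 6.30 for Smad2. The TGF-β ligands also lay above the activin subunits, by 3.46, 3.57 and 3.18. Without length the log2 ratio of TGF-β to BMP ligands rose from 1.21 to 2.35, and with the longest transcript that of TGF-β ligands to activin subunits went from 1.76 to 2.36. These sums were chosen after values had been seen. Each kept its direction in 3 of 3 libraries, and an exact sign-flip permutation test (two-sided) gave p = 0.25 for each, and 3 libraries permit none smaller. The inhibitory Smads summed to 1.03, 1.16 and 1.03 times the BMP-arm Smads, which fell below 1 when the longest transcript replaced the exonic length (log2 ratio -0.11).

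The antagonists were dominated by Grem1 (chr2:113746164-113758646, minus strand), whose product binds BMP ligands, with 92.3, 87.7 and 90.6 CPM. At 21.7 ± 0.564 CPM per kilobase (SD, n = 3) it was the highest member after Id3 and Id1 and above 78.8% of the protein-coding genes above the floor. Fst, which encodes follistatin and binds activins, had 5.35, 6.05 and 6.78 CPM. Chrd, which encodes chordin, had 2.38, 2.43 and 2.94 CPM, and Nog, which encodes noggin, had 35, 39 and 38 counts. Grem1 exceeded Fst per kilobase by 19.1, 16.0 and 14.8 and Nog by 53.8, 45.4 and 43.4, and it held 90.8% ± 1.01 (SD, n = 3) of the summed antagonist level. The summed antagonists stood above the summed BMP ligands by 1.85, 1.61 and 1.76, a mean log2 ratio of 0.80 that was 1.68 without length.

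Of the Id genes, which encode inhibitors of basic helix-loop-helix factors, Id3 and Id1 were the highest members of the set per kilobase. Id3 (chr4:136143497-136145755, plus strand) had 368, 389.9 and 351 CPM, Id1 (chr2:152736251-152737410, plus strand) had 127, 132 and 125, and Id2 (chr12:25093799-25097140, minus strand) had 45.9, 41.3 and 45.7. Per kilobase, Id3 at 206 ± 10.99 and Id1 at 110.5 ± 2.74 (SD, n = 3) lay above 98.8% and 97.0% of the protein-coding genes above the floor. Id2, at 18.2 ± 1.07, lay below Smad4 in the mean, and their ranges overlapped. Id3 exceeded Id2 by 10.9, 12.9 and 10.4, and Id1 exceeded Id2 by 5.84, 6.70 and 5.76.

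Of 18 pairs of related genes, 14 had counts enough for a ratio in each library, and 4 were given above from summed counts. All 14 had the same direction in 3 of 3 libraries. The exact sign-flip permutation test (two-sided) gave p = 0.25 for each of them, 0.25 after Benjamini-Hochberg adjustment over the 14, and no smaller p can be had from 3 libraries. The widest spread between libraries was that of Acvr2a over Acvr2b, with an SD of 0.51 on the log2 scale, and the narrowest that of Bmpr2 over Bmpr1a, with 0.03.

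**Figure D3:**
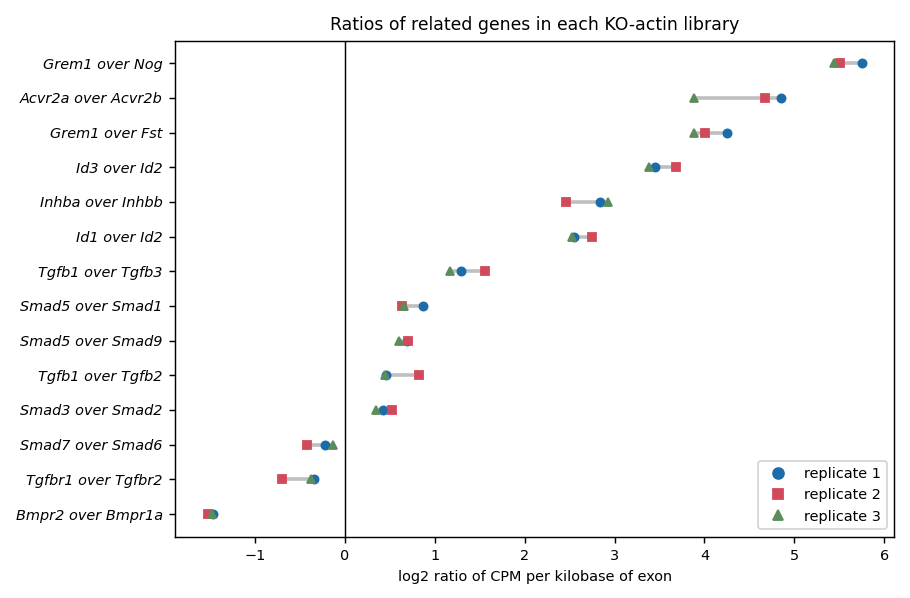
Log2 ratio of CPM per kilobase for 14 pairs of related genes, with a symbol per library and a grey bar over their range. No bar crosses 0, and replicate 2 lies at an end of the bar for pairs such as Tgfb1 over Tgfb2 and Tgfbr1 over Tgfbr2.

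In the order of levels per kilobase, the 34 members above the floor form 33 neighbouring pairs, of which 11 did not overlap in range over the 3 libraries and 22 did. Gaps without overlap set off Id3 from Id1, Id1 from Grem1 and Grem1 from Smad4 at the top. Below Smad4 the levels ran without a clear step through Id2, Tgfb1, Bmpr1a, Smad6 and Bmp4, and a gap then set Bmp4 off from Tgfbr2. Other gaps lay below Acvr1, Acvr1b, Tgfb3, Bmpr2, Acvr2a, Inhbb and Tgfbr3. The number of pairs without overlap was 16 without replicate 1, 21 without replicate 2 and 17 without replicate 3, where the range over fewer libraries is narrower by construction.

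Spread between libraries was tested for the 34 members above the floor, all of which had at least 10 counts in every library. A chi-square test against counting error, with Benjamini-Hochberg adjustment over 13814 genes at a threshold of 0.05, called 20 of the 34 members varying, where 43.8% of all tested genes were called. When only genes of 100 or more counts per library were tested, the numbers were 18 of 29 members and 51.7% of 11059 genes. This test compares libraries of 1 condition. The count of 20 depended on single libraries, being 12 without replicate 1, 5 without replicate 2 and 15 without replicate 3, where 32.9%, 12.4% and 34.2% of all tested genes were called. Calls were made for 5 of 10 ligands, 6 of 9 receptors, 6 of 8 Smads, 1 of 4 antagonists and 2 of 3 Id genes. With the scaling by GC content described below, they were made for 4 ligands, 4 receptors, 2 Smads, 0 antagonists and 1 Id gene, where 29.9% of all tested genes were called.

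Most of the called differences were small. Only Gdf15, Acvr2b and Bmp8a were called with the highest library more than 1.5-fold above the lowest, where 3.8% of all tested genes met both criteria. The highest library exceeded the lowest by 2.45-fold for Gdf15 (adjusted p = 0.0046), 1.82-fold for Acvr2b (adjusted p = 0.044) and 1.92-fold for Bmp8a (adjusted p = 0.0040), by the chi-square test with Benjamini-Hochberg adjustment. These 3 members had means of 0.609, 0.649 and 1.43 CPM, among the lowest tested. None of the 3 calls held in every fit that left out a library, with adjusted p up to 0.58 for Gdf15 without replicate 2, 0.95 for Acvr2b without replicate 3 and 0.19 for Bmp8a without replicate 1.

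**Figure D4:**
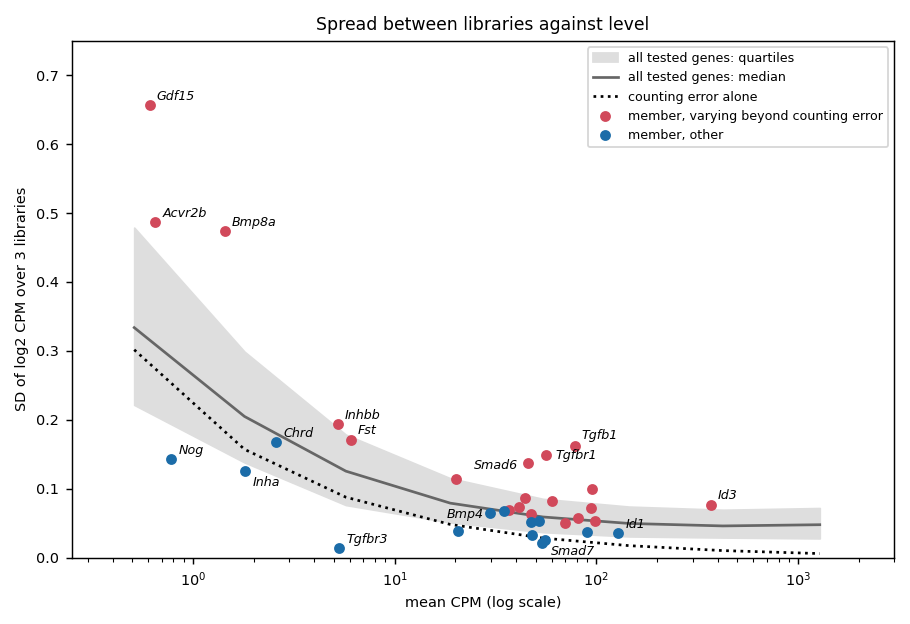
SD of log2 CPM over the 3 libraries against mean CPM (log axis) for the 34 tested members, red where the chi-square test called variation and blue otherwise, with the median and quartiles of all 13814 tested genes and the median SD that counting error alone gives. Gdf15, Acvr2b and Bmp8a lie highest at 0.66, 0.49 and 0.47, and Tgfb1, Tgfbr1 and Smad6 lie above the quartiles at their level.

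Among well-measured members, Tgfb1 was called with an adjusted p of 6.66e-20 and still without replicate 2 (adjusted p = 0.019), whereas Tgfbr1 (2.73e-11) and Smad6 (1.20e-08) lost their calls without it (adjusted p = 0.75 and 0.57). Replicate 2 was the highest library for 11 and the lowest for 14 of the 34 tested members, 25 in all, where replicate 2 was at either end for 77.1% of all tested genes. The members thus did not stand out in this. Base composition moved with the deviation of replicate 2. Of 18 tested members whose longest transcript has at least 50% GC, 13 were higher in replicate 2 than in the mean of replicates 1 and 3, and of 16 with less GC 12 were lower. Over all tested genes these shares were 71.6% and 71.4%. When library sizes were scaled within 50 bins of GC content, 11 members were called, where 29.9% of all tested genes were. Tgfb1 (adjusted p = 1.51e-15), Tgfbr1 (0.013) and Id3 (1.50e-04) kept their calls under that scaling and Smad6 (0.092) did not.

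**Figure D5:**
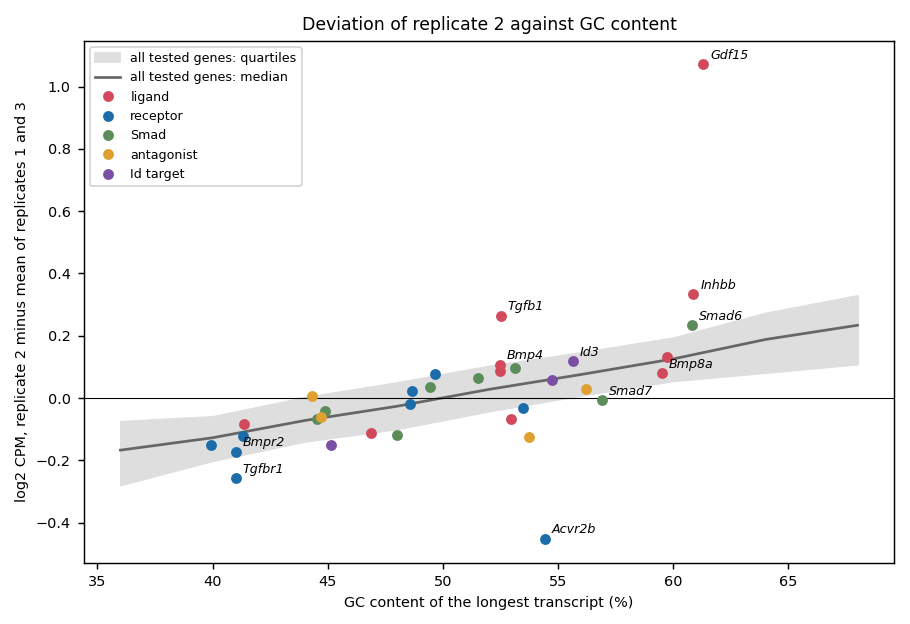
Deviation of replicate 2 from the mean of replicates 1 and 3 in log2 CPM against GC content of the longest transcript (percent), for the 34 tested members by class, with the median and quartiles of all tested genes. The median of all genes rises from -0.17 in the lowest GC bin to 0.23 in the highest, and Gdf15 at 1.07, Tgfb1 at 0.26 and Acvr2b at -0.45 lie outside the quartiles at their GC content.

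The wider pathway was counted from a list of 69 other genes matched in the files, of which 44 were above the floor and 21 had at most 3 counts in every library. All 13 regulators of Smad activity or turnover were above the floor, led per kilobase by Ski, a repressor that binds Smads, at 39.1 and by Smurf1, a ubiquitin ligase for Smads and receptors, at 29.8. Of 14 other ligands, the floor was passed by Amh, with 71, 64 and 45 counts, and Lefty1, an inhibitor of Nodal, with 38, 39 and 17. At most 3 counts were found for 10 of the 14, namely Nodal, Mstn, Gdf2, Gdf3, Bmp10, Bmp15, Lefty2 and Inhbc at 0 in each library, Bmp8b with 1 in each and Inhbe with 3, 1 and 0. Other ligands therefore repeated the pattern of the BMP and GDF members, with most genes at or near 0. Of 9 other receptors and co-receptors 5 passed, led by Lrrc32, which holds latent TGF-β on the cell surface, at 6.98 CPM per kilobase and Rgma, a BMP co-receptor, at 2.73, while Acvr1c, the receptor known for Nodal, had 1, 2 and 3 counts and Tdgf1, a Nodal co-receptor, 1, 0 and 0.

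Among genes that store, cleave or bind the ligands outside the cell, a few were high and others had no reads. Of 11 latency and processing genes 8 were above the floor, and the median of the 11 was 2.91 CPM per kilobase, with Thbs1, an activator of latent TGF-β, at 175 CPM per kilobase and Ltbp1, which tethers it to the matrix, at 30.6. The other 3 of these were Tll1 and Tll2 at 0 counts and Pcsk5 with 2, 0 and 1. Of 12 further antagonists 7 were above the floor, and the median of the 12 was 2.03 CPM per kilobase, led by Fstl1 at 113 and Twsg1 at 31.9 CPM per kilobase, while Sost, Sostdc1, Cer1 and Chrdl2 had 0 counts in each library. Both leading genes exceeded Grem1, the highest of the 4 antagonist members. Of 10 other target genes 9 were above the floor, among them Junb, a transcription factor gene, at 88.6 CPM per kilobase, between Id1 and Grem1, and Msx1 was at 0 counts. Of the 44 listed genes tested for spread, 24 varied beyond counting error by the same test, beside the 43.8% of all tested genes.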

How the data were processed

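RNA-Seq was analysed for 3 KO-actin libraries, grouped by the labels. For each library the authors deposited a table of read counts by Ensembl gene identifier, not normalized. The submitters' processing notes name Trimmomatic, FastQC, HISAT2 and HTSeq with mm10 and GRCm38. Their versions, the annotation release, the read length and the strand setting are not given in the sources used here, and this bears on overlapping genes and near copies. The study's methods state DESeq2 with default settings for its own comparisons, which need libraries not used here.

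Symbols, coordinates, exonic lengths (all exons of a gene merged) and GC content came from GENCODE M21 on GRCm38. TMM scaling used edgeR 4.0.16 (R 4.3.3) and the genes of 10 or more counts in all libraries. Size factors from DESeq2 1.42.0 and plain totals served as alternatives. For the same genes the counts were compared with counting error by a chi-square test (2 degrees of freedom, Benjamini-Hochberg), which had been tested on simulated data. The simulated counts held counting error and changes put into a single library, without other spread between libraries. Ratios were tested by exact sign-flip permutation. Ratios with few counts came from summed counts with Clopper-Pearson intervals at 95%. Other work used Python 3.11.15, numpy 2.4.6, pandas 2.3.3, scipy 1.17.1 and matplotlib 3.10.9.

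The members, pairs and lists were chosen with earlier results of these data known. Values per library are given for the ligands, the 2 highest genes of each role, the pairs, members with few counts and members varying by more than 1.5-fold, and from the wider list for the 2 highest genes of each sub-list and those with at most 3 counts in every library, except items that are not reported here. Of 72 genes in the wider list 69 were matched. Alternatives were other count floors and filters, scaling within GC bins, other lengths, leaving out each replicate, and, chosen after seeing the data, the summed ratios, other windows around Bmp6 and its ratios to other BMP ligands.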

Additional observations from a re-analysis of the deposited data

How the results depend on the processing

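No paired analysis was possible because the libraries form only 1 group. The number of members above the floor was 34 to 36 under other floors, and the number at 1 CPM or more was 31 to 33 under other scalings and levels. The members varying beyond counting error were 11 with scaling within GC bins, against 20. They were 5 to 15 across the fits that left out a replicate. Of all tested genes, 29.9% were called with GC bins and 12.4% to 34.2% without a replicate, against 43.8%. The neighbouring pairs without overlap were 16 to 21 without a replicate, against 11. Per kilobase of the longest transcript, class medians were 11.7 for Smads, 1.33 for antagonists and 7.33 for receptors, and the log2 ratio of inhibitory to BMP-arm Smads reversed to -0.11. Without length, medians in CPM were 128 for Id genes, 50.5 for Smads, 4.32 for antagonists, 1.02 for ligands and 34.9 for receptors, and the share of Bmp3 among BMP ligands was 0.0897%. The log2 ratios that reversed without length were 0.0091 for Bmpr2 over Bmpr1a, -0.23 for Smad3 over Smad2, 0.24 for Smad7 over Smad6 and -0.68 for inhibitory over BMP-arm Smads, by construction of the scale. Ratios that kept their direction but moved by over 1.5 times were, on the log2 scale, Grem1 over Fst (3.40 with the longest transcript, against 4.05) and, without length, Grem1 over Nog (6.86, against 5.56), Id1 over Id2 (1.53, against 2.61) and Inhba over Inhbb (3.33, against 2.74), beside those given with the results. Over members above the floor alone the medians were 7.12 for ligands and 7.90 for receptors. Among the 34 members tested for variation, 11 lost and 2 gained a call with GC bins. Among members still tested, other scalings and filters lost 0 to 2 and gained 0 to 2. The filter of 100 counts left 29 members tested, and the called members Gdf15, Acvr2b and Bmp8a were not among them. Depth limits Bmp2, Bmp3, Bmp5, Bmp6, Bmp7, Gdf5, Gdf6, Gdf10, Bmpr1b and Acvrl1, none of which exceeded 3 counts in every library.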
